A study of Drosophila melanogaster with 36 samples.

Results

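The comparison concerns brains of female Drosophila melanogaster larvae, taken at the wandering stage before pupariation, in which the replication-dependent histone H3.2 carries arginine in place of lysine 36. The mutant group is labelled H3.3WTH3.2K36R and the control group H3.3WTH3.2HWT, so both groups have wild-type H3.3, the histone variant deposited independently of replication. Each group held 3 libraries, and the 6 were chosen by genotype and sex from the 36 libraries of the series. The series covers 6 genotypes and both sexes. The other genotypes, labelled H3.3K36RH3.2HWT, H3.3CtrlH3.2HWT, Set21 and yw, serve for comparison, and all 36 libraries enter the model behind the adjusted p-values. Larvae grew at 25 °C, 50 to a vial, and brain messenger RNA was selected by its polyA tail. The labels state neither how the H3.2 genes were replaced nor how many brains entered a library. In the platform commonly used for such mutants, the native cluster of replication-dependent histone genes is deleted and a transgenic array supplies the histones, so that controls carry the deletion too.

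Lysine 36 of histone H3 is methylated over the bodies of transcribed genes. In flies NSD and Ash1 place mono- and dimethylation, Set2 places trimethylation, and proteins that read the mark take part in restricting cryptic transcription, in splicing and in dosage compensation. Arginine keeps the positive charge of lysine and cannot be methylated by these enzymes. In the larval brain, neuroblasts divide asymmetrically to renew themselves and to give rise to neurons and glia. Dosage compensation in males uses the noncoding RNAs roX1 and roX2, which are normally scarce in females. roX2 therefore points to male RNA in a library labelled female, and transcripts of the Y chromosome are given beside it.

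Male transcripts were present in all 6 female libraries and in unequal amounts. roX2 (FBgn0019660, X) had 774, 1591 and 968 reads in control libraries 1 to 3 and 924, 352 and 118 reads in mutant libraries 1 to 3. Scaled to library size as CPM, the usual depth-normalised read count, these were 7.52, 15.5 and 9.93 in controls and 7.99, 3.75 and 1.09 in mutants. Control library 2 was the highest, mutant library 3 the lowest, and the groups overlapped. Set against the mean of males of the same genotype, the female libraries held 17.4%, 35.7% and 22.9% of the male roX2 level in controls and 28.4%, 13.3% and 3.87% in mutants. The log2 difference of mutants minus controls was -1.35 ± 0.65 (SE, adjusted p = 0.13), which did not pass the threshold of 0.05 in edgeR's quasi-likelihood test with Benjamini-Hochberg adjustment, the source of every adjusted p.

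Y-linked genes gave the same picture with one difference. Their summed reads were 556, 2063 and 465 in the controls and 2268, 839 and 314 in the mutants, or 5.40, 20.1 and 4.77 CPM against 19.6, 8.94 and 2.90 CPM. Control library 2 and mutant library 1 were again the highest of their groups. Males of the control genotype had 23.3 ± 1.56 CPM (SD, n = 3) and males of the mutant genotype 66.7 ± 4.11 CPM (SD, n = 3). The female libraries therefore held 23.2%, 86.1% and 20.5% of the male Y level in controls and 29.4%, 13.4% and 4.34% in mutants. For control library 2 the Y share was far above its roX2 share. The Y level did not separate the sexes in every genotype. In yw it was 1.36 ± 0.21 CPM in females and 1.52 ± 0.46 CPM in males (SD, n = 3). roX2 in yw was 2.07 CPM in females and 71.2 CPM in males. A Y share is therefore not a measure of the amount of male RNA by itself. Of 113 Y-linked genes in the table, 62 had a read in at least one of the 6 libraries. FDY, a protein-coding gene of the Y, gave 369, 1363 and 334 reads in controls and 1482, 524 and 170 in mutants, most of the Y signal.

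**Figure D1:**
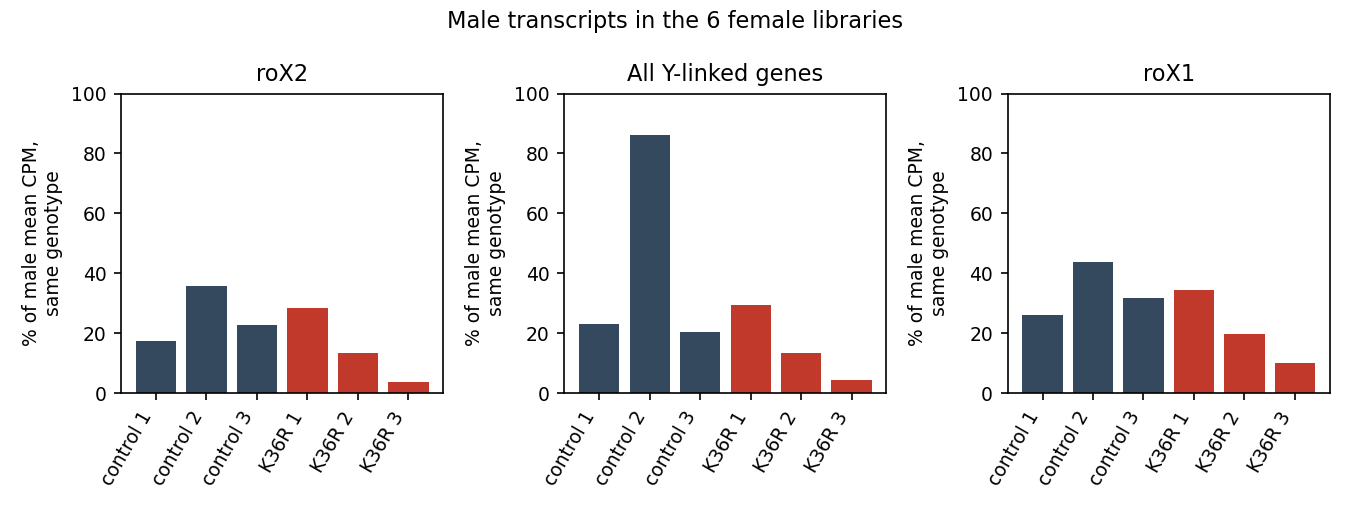
Bars give the CPM of roX2, of all Y-linked genes and of roX1 in each of the 6 female libraries, as a percentage of the mean of the 3 male libraries of the same genotype. Control library 2 reached 35.7% for roX2 and 86.1% for the Y, and mutant library 3 stood at 3.87% and 4.34%.

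Of the other dosage compensation genes, roX1 (FBgn0019661, X) ran parallel to roX2. It measured 563, 939 and 683 CPM in controls and 785, 452 and 229 CPM in mutants (log2 difference -0.58 ± 0.30, adjusted p = 0.17). msl-2, which encodes the male-limited subunit of the dosage compensation complex, was called lower (log2 difference -0.28 ± 0.08, adjusted p = 0.0163). Its levels were 67.2, 82.7 and 72.2 CPM in controls and 68.7, 61.2 and 53.6 CPM in mutants, so they overlapped and followed the male transcripts from library to library. The call did not hold without control library 2 (adjusted p = 0.151) or without mutant library 3 (adjusted p = 0.147). It also did not hold with roX2 as a covariate (adjusted p = 0.0851) or in a fit to the 6 libraries alone (adjusted p = 0.116). Sxl, the switch gene of female development, stood at 570.3 ± 43.9 CPM in controls and 596 ± 60.1 CPM in mutants (SD, n = 3), with a log2 difference of 0.06 ± 0.10 (adjusted p = 0.69). The part of male RNA in the changes below was not tested. Counts without control library 2 and mutant library 1, the libraries with the most roX2 in their groups, are given beside the list counts. Leaving these out did not even out roX2. The remaining controls had 7.52 and 9.93 CPM and the remaining mutants 3.75 and 1.09 CPM, which no longer overlapped. A call kept there therefore does not show that male RNA had no part in it.

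The libraries held between 93496526 and 113157024 reads counted in genes, and 13144 to 14300 genes with a read. The pan-neuronal gene elav had 982 ± 88.4 CPM in controls and 984 ± 19.6 CPM in mutants (SD, n = 3), and the active-zone gene brp 839 ± 56.3 and 951 ± 81 CPM. Set2 itself had 171 ± 4.85 CPM in controls and 164 ± 4.03 CPM in mutants (log2 difference -0.07 ± 0.03, adjusted p = 0.16). The H3.2 substitution could not be read from these gene counts, so no library's genotype was checked by its target.

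Of 12167 genes tested, 1351 were higher (11.1%) and 1667 lower (13.7%) in mutant females, 24.8% in all. List counts below are to be read beside the 11.1% and 13.7%. The rises were larger than the falls. The median log2 difference was 0.62 among genes called higher and -0.20 among genes called lower, against -0.001 over all genes tested. Changes of at least 1 on the log2 scale numbered 525 up and 95 down, and changes of at least 3 numbered 232 up and 10 down. Genes called higher had a median control level of 4.23 CPM and genes called lower 49.1 CPM, where all tested genes had 14.6 CPM. Among genes that rose by at least 2 on the log2 scale, 315 (94.9%) lay under 1 CPM in controls, and 33 genes called higher had no read in any control. A filter that required a mean of 1 CPM over all 36 libraries of the series left 917 of the higher calls and 1286 of the lower ones. Of the 525 rises and 95 falls of at least 1 on the log2 scale, it left 140 and 47.

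Leaving out the highest-roX2 library of each group left 909 genes called higher and 930 called lower, with 862 and 895 of them among the original calls. Of the 525 rises of at least 1 on the log2 scale, 399 stayed called, as did 76 of the 95 falls. With the roX2 level of each female library as a covariate, 1029 genes were higher and 1029 lower. A fit to the 6 libraries alone gave 1151 and 1031. Under each of these 3 settings the changes of at least 1 on the log2 scale were kept in a larger share than all calls of the same direction. Under the filter of 1 CPM the reverse held.

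**Figure D2:**
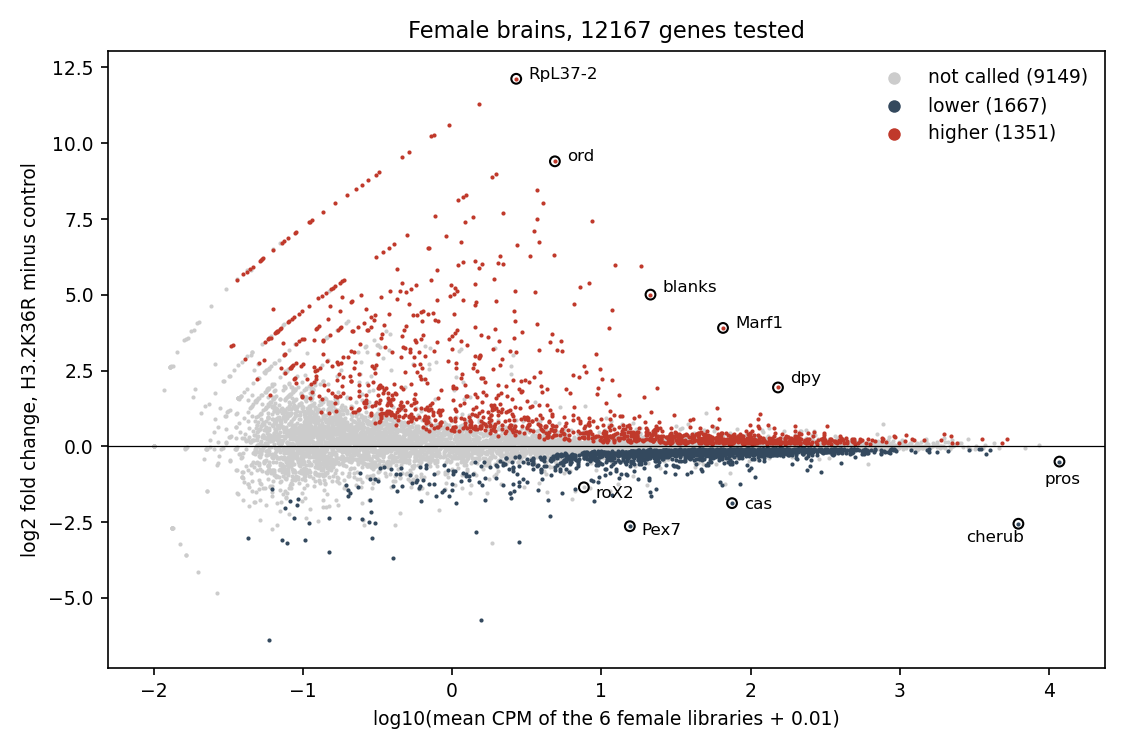
Each point is 1 of 12167 genes tested, with the log10 mean CPM of the 6 female libraries on the x axis and the log2 fold change of H3.2K36R minus control on the y axis. Red points were called higher (1351) and dark points lower (1667), and the largest rises lie at low levels while the falls of cherub and pros lie among abundant transcripts.

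Genes of the germline were among the largest rises. Of 19 tested genes of germ cell identity, 11 were higher and 1 lower, with a median log2 difference of 1.19 against -0.001 over all genes tested. nanos (FBgn0002962, 3R), a translational repressor needed in germline stem cells, measured 7.54, 6.51 and 6.81 CPM in mutants and 0.136, 0.331 and 0.133 CPM in controls. Every mutant library was far above every control, and the log2 difference was 5.11 ± 0.34 (adjusted p = 3.07e-12). Marf1 (FBgn0039972, 2L), an RNA-binding regulator of oocyte maturation, stood at 123, 125 and 119.9 CPM against 8.29, 8.21 and 8.02 CPM (log2 difference 3.91 ± 0.22, adjusted p = 6.94e-14). blanks (FBgn0035608, 3L), which encodes a double-stranded RNA-binding protein of the male germline, stood at 42.0, 40.6 and 41.7 CPM against 1.5, 0.973 and 1.40 CPM (log2 difference 5.0 ± 0.24, adjusted p = 2.15e-15). tut, a partner of the differentiation factor bam, rose by 4.04 ± 0.32 and zpg, the germline gap junction gene, by 5.54 ± 0.38 on the log2 scale. Named after its values were seen, bam itself had 15.4, 14.3 and 13.1 CPM in mutants and 4.31, 3.72 and 4.80 CPM in controls. Members at high levels in every library did not pass, such as mei-P26 at 1125 ± 92.9 CPM in controls and 1212 ± 72.5 CPM in mutants.

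In the piRNA pathway, which silences transposons in the germline, 12 of 31 tested members were higher and 3 lower, with a median log2 difference of 0.10. The genes called higher act at several steps. rhi, the heterochromatin protein 1 paralog that marks dual-strand piRNA clusters, had 9.76, 7.61 and 7.54 CPM in mutants and 0.612, 1.10 and 0.575 CPM in controls. Its log2 difference was 3.44 ± 0.26 (adjusted p = 4.25e-11), and moon, which licenses transcription of those clusters, rose by 3.86 ± 0.31 (adjusted p = 1.23e-10). The Tudor-domain gene krimp had 38.9, 38.0 and 35.6 CPM against 8.69, 11 and 9.96 CPM, and qin, another Tudor-domain gene, 17.6, 17.7 and 15.2 CPM against 2.95, 2.93 and 2.7 CPM. In fs(1)Yb, which acts in the somatic cells of the ovary, the mutants had 3.41, 2.58 and 1.59 CPM and the controls 0.311, 0.331 and 0.308 CPM, so its mutant levels followed roX2 from library to library. Among the Argonaute genes, named after their values were seen, the log2 rise was 1.30 ± 0.15 for AGO3, 0.82 ± 0.15 for aub and 0.82 ± 0.17 for piwi. Members with the highest levels did not pass, with tud at 743 ± 9.26 CPM in mutants and 709.9 ± 27.2 CPM in controls (adjusted p = 0.24).

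Meiosis genes moved in both directions, 8 of 25 tested members higher and 6 lower, with a median log2 difference of 0.20. Genes of the synaptonemal complex and of meiotic cohesion made up the named rises. ord (FBgn0003009, 2R), a cohesion factor, had 11, 9.05 and 9.16 CPM in mutants, and of the controls library 2 alone had reads, at 0.0389 CPM. c(3)G, the transverse filament protein of the complex, was read in every library, with 19.5, 18.2 and 17.1 CPM against 7.93, 9.73 and 9.81 CPM (log2 difference 0.99 ± 0.06, adjusted p = 1.07e-12). corolla and cona, of the central region, rose by 2.96 ± 0.35 and 5.13 ± 0.69, and the cohesin subunit sunn by 1.94 ± 0.20. Without the highest-roX2 libraries 7 members were higher and 3 lower, and without control library 2 alone 3 were lower.

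Germline and testis paralogs of housekeeping genes included 15 higher and 2 lower of 31 tested, with a median log2 difference of 1.13. RpL37-2 (FBgn0034822, 2R), a retrogene copy of a ribosomal protein gene, had 5.96, 5.32 and 4.79 CPM in mutants and no read in any control, which is at least 180.3-fold higher if each control is set at 3 reads. RpL22-like, a germline ribosomal protein, had 20.9, 14.6 and 16 CPM against 0.117, 0.156 and 0.0205 CPM. gNacalpha, a germline copy of a subunit of the nascent polypeptide complex, rose by 5.27 ± 0.33, and the testis translation factor eIF4E3 by 6.64 ± 0.49. Reads shared with parent genes could not be separated here.

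Genes of the sperm axoneme and of cilia included 11 higher and 4 lower of 26, with a median log2 difference of 0.46. Dhc98D (FBgn0013813, 3R), an axonemal dynein heavy chain, had 23.1, 22.7 and 22 CPM in mutants and 0.855, 0.896 and 1.22 CPM in controls (log2 difference 4.51 ± 0.20, adjusted p = 4.94e-16). Oseg2, an intraflagellar transport gene, had 8.28, 9.47 and 8.04 CPM against 0.641, 0.594 and 0.729 CPM. Rfx, the transcription factor of ciliary genes, fell by 0.37 on the log2 scale (SE 0.05), from 80.1 ± 4.10 to 61.9 ± 3.92 CPM. The 11 included kl-2, kl-3 and kl-5, dynein genes of the Y. kl-2 had 76, 24 and 10 reads in mutants and 0, 3 and 0 in controls. The kl-2 reads followed roX2 among the mutants, whereas kl-5 had 10, 14 and 2 reads, highest in mutant library 2, and none in controls. Mutant males had means of 2.62 CPM for kl-2, 0.451 CPM for kl-3 and 0.447 CPM for kl-5. Control males had 0.0337, 0.0143 and 0 CPM. The part of male RNA in the female calls of these Y-linked genes was not tested. The calls of kl-3 (adjusted p = 0.0864) and kl-5 (adjusted p = 0.0519) did not hold with libraries paired by replicate number. In the testis list of 23 genes 10 were tested, of which 3 were higher, 1 was lower and 6 were not called. Without the highest-roX2 libraries 2 were higher and 1 lower. The arrest gene aly, called higher, had 1.05, 0.767 and 0.812 CPM against 0, 0.0389 and 0.0205 CPM.

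Without the highest-roX2 libraries, 10 of the 11 germ cell genes called higher kept the call, as did 11 of 12 piRNA genes. So did all 15 paralogs and 9 of 11 axoneme genes, with the kl genes of the Y among the 11. Under the filter of 1 CPM, the counts called higher were 7 germ cell genes, 8 paralogs, 6 axoneme genes and 4 meiosis genes. Some of these genes also stood in the order of roX2 across mutant libraries 1 to 3. The scaling factors of these libraries had that order too (1.0224, 1.0036 and 0.9882). The CPM were already scaled by these factors, and the cause of the order was not tested. Of 59 genes called higher in the germ cell, piRNA, meiosis, paralog, testis and axoneme lists, 22 (37.3%) stood highest in mutant library 1, next in library 2 and lowest in library 3, the order of roX2, beside 18.6% of all genes called higher and 20.8% of all genes tested. Among them were rhi, RpL37-2 and bam, while Marf1, nanos and qin had another order. Among markers of the somatic gonad, 1 of 9 was higher and 2 lower, beside 11.1% and 13.7% of all genes. Without the highest-roX2 libraries 2 were higher and none lower. The level of zfh1, which is also expressed in the nervous system, was 308 ± 4.10 CPM in mutants and 285 ± 16.5 CPM in controls (adjusted p = 0.11).

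**Figure D3:**
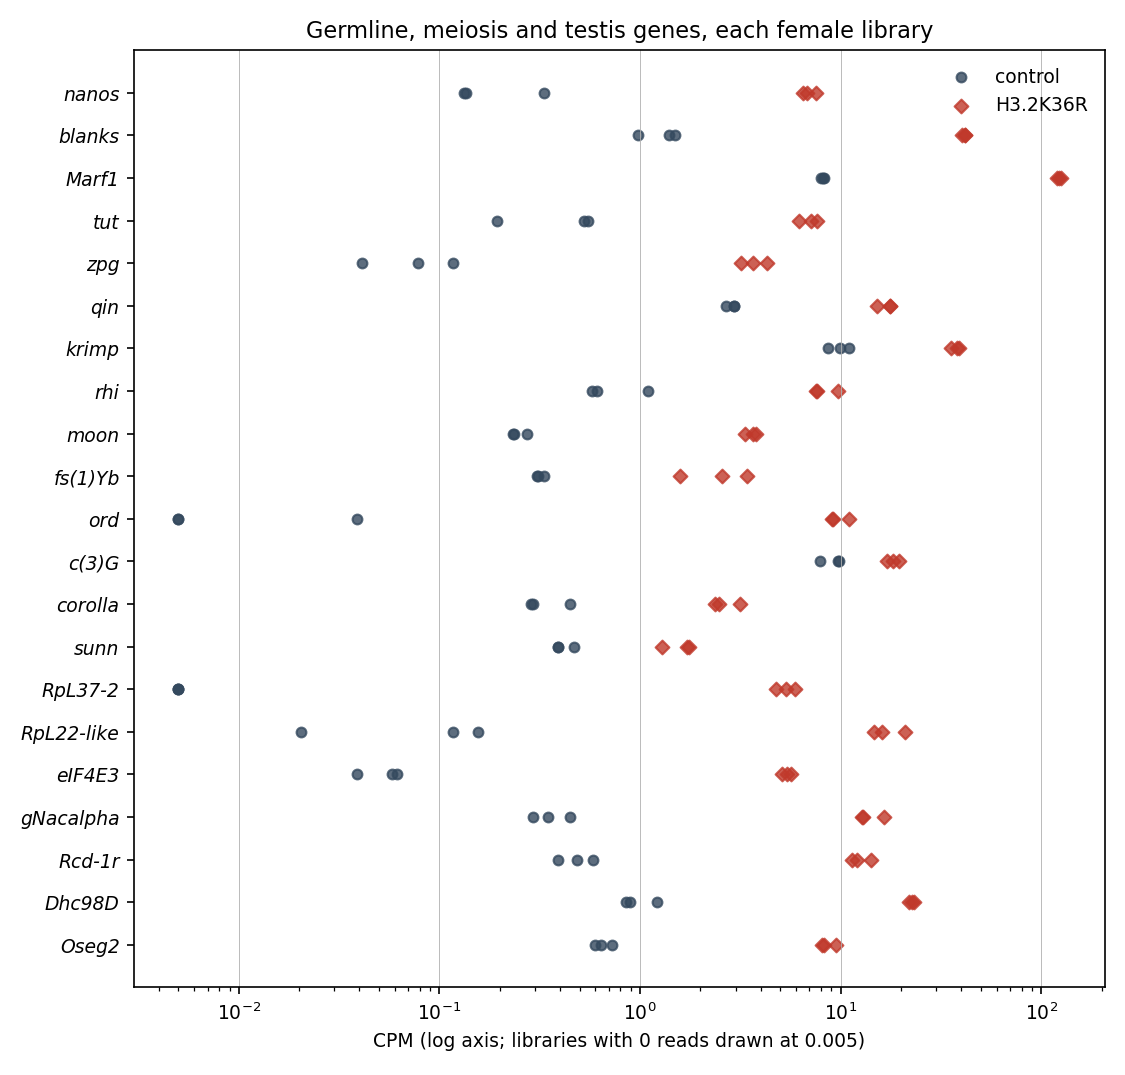
CPM of germline, meiosis and testis genes in each female library on a log x axis, with circles for controls and diamonds for H3.2K36R, and libraries with 0 reads drawn at the left edge. The 3 mutant points lay to the right of every control point for each gene drawn.

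Among genes of neuroblast identity, 15 of 19 tested were lower and none higher, with a median log2 difference of -0.45. The proneural gene sc had 1.33, 1.32 and 1.11 CPM in mutants and 4.20, 3.62 and 3.02 CPM in controls (log2 difference -1.53 ± 0.21, adjusted p = 3.31e-06). mira, which encodes the adaptor that carries fate determinants to the daughter cell, had 210.2, 222 and 211 CPM against 276, 314 and 289 CPM (log2 difference -0.45 ± 0.07). dpn, a neuroblast self-renewal factor, fell by 0.50 (SE 0.08) and nab by 0.50 (SE 0.08) on the log2 scale. pros (FBgn0004595, 3R), the determinant that ends self-renewal in the daughter, was among the most abundant transcripts, with 12399, 14275 and 14682 CPM in controls and 9417, 9271 and 10494 CPM in mutants. No group overlapped with the other for these 5 genes. SoxN was not called, at 675 ± 43.0 CPM in mutants and 648 ± 43.4 CPM in controls. Without the highest-roX2 libraries 12 members were lower.

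Of 20 genes of asymmetric division, 7 were lower and none higher, with a median of -0.07. The noncoding RNA cherub (FBgn0262972, 3R), which is segregated in dividing neuroblasts and is abundant in neuroblast tumours, had 9422, 11847 and 10711 CPM in controls and 2394, 1512 and 1543 CPM in mutants. Its log2 difference was -2.55 ± 0.13 (adjusted p = 1.16e-14), and mutant library 1, with the most male transcripts of its group, stood nearest to the controls. numb, an inhibitor of Notch signalling, fell by 0.44 (SE 0.04), from 131 ± 5.63 to 96.9 ± 3.23 CPM. insc, which orients the division, had 33.2, 28.9 and 28.8 CPM against 38.4, 45.6 and 43.5 CPM. The tumour suppressor brat was not called, at 4502 ± 261 CPM in mutants and 4122 ± 482 CPM in controls. Without the highest-roX2 libraries 4 members were lower.

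The transcription factors that neuroblasts express in sequence split between directions, with 3 higher and 5 lower of 16, beside 11.1% and 13.7% of all genes. The middle factor cas (FBgn0004878, 3R) had 116, 132 and 105 CPM in controls and 34.1, 31.6 and 30.9 CPM in mutants (log2 difference -1.87 ± 0.12, adjusted p = 1.73e-12). grh, a late factor, had 62.9, 59.9 and 57.8 CPM against 39.2, 33.1 and 31 CPM, a fall of 0.81 (SE 0.12). svp, which times the switch between early and late programs, fell by 0.21 (SE 0.04). pdm2, which precedes cas in embryonic neuroblasts, was higher, with 14.4, 14.7 and 19.2 CPM against 10.8, 8.72 and 11.3 CPM (adjusted p = 0.0054). Without mutant library 3 its adjusted p was 0.0529, and no member of the list was then called higher. With the highest-roX2 libraries left out, 1 member was higher and 3 lower.

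In the optic lobe, 9 of 16 members of the medulla temporal series were lower and none higher, with a median of -0.21. run, a Runt-domain factor of medulla neurons, had 20.5, 22.2 and 22.1 CPM against 32.2, 36.8 and 29.7 CPM (log2 difference -0.61 ± 0.10, adjusted p = 2.73e-05). D, a late factor of the series, fell by 0.22 (SE 0.04) and ey, of its middle, by 0.25 (SE 0.05). Without mutant library 1, 5 members were lower, and without the highest-roX2 library of each group 4. Genes of the optic lobe epithelium and eye counted 11 lower and none higher of 22, with a median of -0.38. The proneural gene ato, which founds photoreceptor and other sensory lineages, had 4.48, 4.13 and 4.34 CPM against 6.80, 8.74 and 7.59 CPM, and the photoreceptor factor gl 2.39, 2.00 and 1.71 CPM against 5.53, 6.25 and 4.63 CPM. The Pax6 gene toy and the homeobox gene Rx fell by 0.37 (SE 0.05) and 0.49 (SE 0.07). Lim1 was not called, at 101 ± 4.39 and 110.4 ± 4.16 CPM. The count was 7 lower and 1 higher without the highest-roX2 libraries. Genes of intermediate progenitors counted 7 lower of 9, which became 4 without control library 2 and 3 without control library 3, without mutant library 1 or without the highest-roX2 libraries. btd, needed for type II lineages, fell by 0.43 (SE 0.09) and pnt, an ETS factor of the same lineages, by 0.28 (SE 0.05).

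Cell cycle and replication genes counted 25 lower and none higher of 38, each by a small amount, with a median log2 difference of -0.21. aurB, the kinase of the chromosomal passenger complex, had 34.4, 35.3 and 35.4 CPM against 46.2, 49.2 and 48.8 CPM (log2 difference -0.46 ± 0.06, adjusted p = 6.09e-07). Cdk1, the mitotic kinase, fell by 0.34 (SE 0.06), and stg, the phosphatase that activates it, by 0.27 (SE 0.06). Cdc45, of the replicative helicase, had 28.6, 28.7 and 27.3 CPM against 33.4, 36 and 35.9 CPM. PCNA was not called, at 99.2 ± 5.11 and 108 ± 8.14 CPM. The count depended on single libraries, with 13 members lower without control library 2, 15 without mutant library 3 and 12 without the highest-roX2 library of each group. In bulk tissue, fewer cells of a type and less RNA per cell cannot be told apart, which applies to every lineage gene above.

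Genes of ion channels and receptors went the other way, with 10 higher and 2 lower of 24 and a median log2 difference of 0.14. nAChRalpha7, a nicotinic receptor subunit, had 258, 282 and 296 CPM in mutants and 188, 211 and 223 CPM in controls (log2 difference 0.43 ± 0.10, adjusted p = 0.00156). The potassium channel gene eag had 65.3, 69.7 and 68.5 CPM against 55.4, 56.7 and 55.6 CPM. The serotonin receptor 5-HT1B rose by 0.33 ± 0.07 and Nmdar2, of the NMDA receptor, by 0.17 ± 0.04. Without control library 1 the count of members called higher was 5, and without the highest-roX2 libraries 6, with none lower. The sodium channel para was not called, at 267 ± 23 CPM in mutants and 242 ± 15.8 CPM in controls.

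Axon guidance and adhesion genes counted 8 higher and 2 lower of 35, beside 11.1% and 13.7% of all genes, with a median of 0.05. The recognition molecules Dscam1 and DIP-alpha rose by 0.26 ± 0.06 and 0.33 ± 0.06. The named paralog Dscam2 had 1121, 1280 and 1353 CPM in mutants and 874, 947 and 1069 CPM in controls, a log2 difference of 0.38 ± 0.09 (adjusted p = 0.00322). The secreted guidance cue Sema2a was nearly invariant within groups, with 388, 391 and 389 CPM against 349, 351 and 353 CPM. Its log2 difference of 0.15 ± 0.02 had an adjusted p of 3.2e-05, and the guidance receptor robo2 fell by 0.18 (SE 0.03). Without control library 2, 5 members were higher, and without the highest-roX2 libraries 7 were higher and 1 lower. Of 20 synaptic vesicle genes 2 were higher and none lower, and of 16 genes of neurotransmitter synthesis and transport 2 were lower. Both were at or near the background shares, with the same counts without the highest-roX2 libraries. Of the 2 transmitter genes called lower, however, only 1 kept the call there. It was ChAT, which makes acetylcholine and fell by 0.33 (SE 0.07).

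Neuropeptide genes stayed near or under the shares of all genes, with 4 higher and 2 lower of 33, beside 11.1% and 13.7%. With the highest-roX2 libraries left out, 3 were higher and 2 lower. SIFa, made by a small cluster of neurons, had 26.4, 26.6 and 26 CPM in mutants and 18.8, 20.1 and 19.6 CPM in controls (log2 difference 0.43 ± 0.05, adjusted p = 1.47e-07). The insulin-like peptide gene Ilp3 rose by 0.52 ± 0.09 and Ptth, the brain hormone that triggers ecdysone production, by 0.36 ± 0.10. sNPF fell by 0.33 (SE 0.07). Glial genes stayed near the background, 1 of 21 higher and 3 lower, with a median of 0.01, and without the highest-roX2 libraries none higher and 1 lower.

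**Figure D4:**
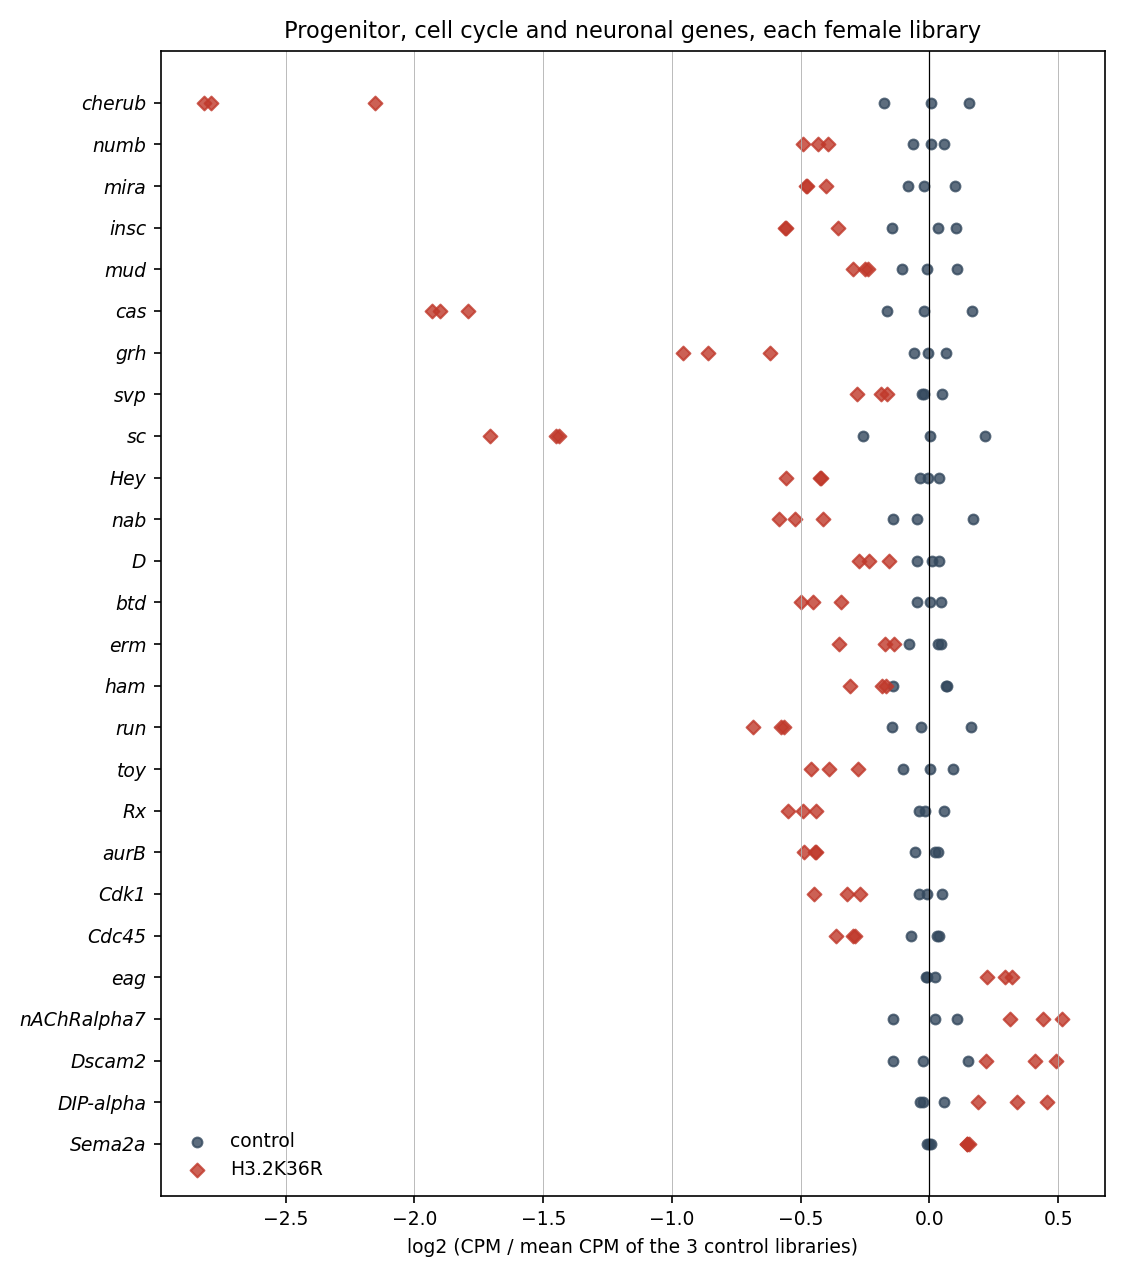
Each point is a female library, drawn as the log2 ratio of its CPM to the mean of the 3 controls, with circles for controls and diamonds for H3.2K36R. The points of cherub lie farthest left, cell cycle genes shift by less than 1 on the log2 scale, and eag, nAChRalpha7, Dscam2, DIP-alpha and Sema2a lie to the right of 0.

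Lists of chromatin genes held more members called lower than higher, and many members were not called. Of 12 genes of histone H3 and its chaperones 5 were lower and none higher. His3.3A, one of the genes for H3.3, had 256, 253 and 239 CPM in mutants and 296, 313 and 306 CPM in controls (log2 difference -0.29 ± 0.06, adjusted p = 0.000425). His3.3B, the more abundant copy, had 3048, 3392 and 3383 CPM against 3258, 3230 and 3280 CPM, and was not called (0.01 ± 0.04, adjusted p = 0.91). The nucleosome assembly chaperone asf1 fell by 0.32 (SE 0.06) and Caf1-55, a subunit shared by several chromatin complexes, by 0.21 (SE 0.04). Without the highest-roX2 libraries 5 of these 12 were lower, and in a fit to the 6 libraries alone 3.

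Polycomb group genes, which keep developmental regulators silent through methylation of lysine 27 of H3, counted 7 lower and none higher of 18, with a median of -0.07. Psc had 203, 192 and 215 CPM against 233, 243 and 254 CPM (log2 difference -0.26 ± 0.04), and the DNA-binding member pho fell by 0.22 (SE 0.03). The count was 6 lower without the highest-roX2 libraries. Among their Hox targets 1 of 8 was higher and 1 lower, near the 11.1% and 13.7% of all genes. The higher one was not called without mutant library 1 or without the highest-roX2 libraries. Ubx had 66.9, 50.5 and 57.6 CPM in mutants and 85.8, 82.2 and 79.9 CPM in controls (log2 difference -0.50 ± 0.10, adjusted p = 0.000574). The levels of abd-A were 96.8, 69.5 and 82.8 CPM against 87.7, 50.1 and 47.1 CPM, which overlapped (adjusted p = 0.43).

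Of 15 heterochromatin factors 8 were lower and 2 higher, with a median log2 difference of -0.13. HP5, a partner of heterochromatin protein 1, had 111, 110.5 and 107 CPM against 122, 130.0 and 131 CPM (log2 difference -0.22 ± 0.03, adjusted p = 4.53e-06). The 2 members called higher were rhi, described with the piRNA genes, and HP6, a chromoshadow-domain paralog of heterochromatin protein 1, with 7.93, 6.98 and 5.99 CPM against 0.00972, 0.0584 and 0.0821 CPM, so both rose while most called members fell. With the highest-roX2 libraries left out, 7 members were lower and 2 higher. L(3)mbt, whose loss turns on germline genes in larval brain, and Myb-MuvB factors counted 8 lower of 12, and 4 without the highest-roX2 libraries or in a fit to the 6 libraries alone. mip130 fell by 0.24 (SE 0.03) and mip40 by 0.24 (SE 0.05). l(3)mbt itself was not called, at 66.9 ± 0.805 CPM in mutants and 70.2 ± 2.62 CPM in controls. Among H3K36 methylation factors 4 of 9 were lower, and 2 without control library 3 or without the highest-roX2 libraries. The demethylase gene Kdm2 fell by 0.14 (SE 0.03) and the reader gene MRG15 by 0.21 (SE 0.04), while the log2 difference of the methyltransferase gene NSD was -0.07 ± 0.04 (adjusted p = 0.30).

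Of 24 genes of DNA damage and apoptosis 4 were higher and 4 lower, beside 11.1% and 13.7% of all genes. The falls rested on few libraries, since none was called without the highest-roX2 libraries, and 2 without control library 2 or without mutant library 3. The 4 rises kept the call without the highest-roX2 libraries. hid (FBgn0003997, 3L), an inhibitor of the caspase inhibitor Diap1, had 48.9, 52.5 and 58.9 CPM in mutants and 27.9, 24.1 and 33.2 CPM in controls (log2 difference 0.91 ± 0.15, adjusted p = 3.23e-05). p53 rose by 0.52 ± 0.09 and Corp, a target of p53, had 8.73, 8.44 and 7.83 CPM against 4.20, 4.56 and 4.93 CPM. rpr, a neighbour of hid with the same role, had 14.1, 16.3 and 18.2 CPM against 13.3, 11.7 and 12 CPM (adjusted p = 0.00505, and 0.0558 without mutant library 3).

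Beyond these lists, dpy (FBgn0053196, 2L), a giant protein of the apical extracellular matrix, rose by 1.94 ± 0.23, with 234, 249 and 244 CPM in mutants and 78.3, 45.2 and 65.6 CPM in controls. dysf, a transcription factor of tracheal fusion cells and other epithelia, had 22, 21.2 and 20.1 CPM against 1.70, 1.01 and 1.52 CPM. Among 15 tested trachea and cuticle genes 2 were higher, near the 11.1% of all genes. They were dpy and the chitin synthase kkv, whose call did not hold without control library 2 (adjusted p = 0.0714). The count was 1 without the highest-roX2 libraries. Pex7, a peroxisomal import receptor, had 5.54, 4.05 and 3.29 CPM in mutants and 26.9, 29.1 and 24.2 CPM in controls (log2 difference -2.63 ± 0.16, adjusted p = 7.93e-13). Sol1, jdp and Root fell by 1.79 (SE 0.13), 1.28 (SE 0.14) and 1.08 (SE 0.10). By CPM gained, Sap-r, the saposin precursor, rose from 805 ± 21.7 to 1019 ± 13.1 CPM, and Obp44a, an abundant glial secreted protein, fell from 4135 ± 165 to 3486 ± 255 CPM.

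Lists of tissues that lie beside the brain held calls in both directions, beside 11.1% higher and 13.7% lower of all genes. In the muscle and fat body lists both shares were near or under these, and so was the share of hemocyte genes called higher. In the ring gland list 5 of 14 were lower, with 3 without mutant library 3 and 4 without the highest-roX2 libraries. nvd, of ecdysone synthesis, had 7.15, 6.94 and 3.57 CPM in mutants and 16.3, 18.7 and 18.5 CPM in controls (log2 difference -1.60 ± 0.35, adjusted p = 0.00126), while phtm, of the same pathway, had 124, 108 and 50.0 CPM against 122, 135 and 131 CPM and was not called. Mutant library 3 was the lowest for both genes. Of 21 hemocyte and basement membrane genes 3 were higher and 5 lower, and without the highest-roX2 libraries 2 and 4. PPO1, a crystal cell marker, had 0.121, 0.0213 and 0.0185 CPM against 3.73, 2.86 and 2.52 CPM, and the collagen gene vkg 12.8, 10.7 and 9.94 CPM against 38.7, 33.7 and 21.6 CPM. SPARC, also of the basement membrane, rose by 0.40 ± 0.06. Imaginal disc genes counted 8 lower and 1 higher of 19, among them vg, which fell by 0.58 (SE 0.06), and without the highest-roX2 libraries 7 were lower and none higher. Salivary glue genes were high in mutant library 1. Sgs7 had 12.2, 0.0639 and 1.27 CPM in mutants and 1.11, 0.389 and 0.185 CPM in controls. The 2 glue genes called higher, Sgs5 and Sgs5bis, did not hold without mutant library 1 (adjusted p = 0.333 and 0.668). In the muscle list 15 of 18 genes were not called, 1 was higher and 2 were lower, with a median of 0.0003. The 2 called lower were bt, the projectin gene, which fell by 0.86 (SE 0.11), and Mef2, which fell by 0.43 (SE 0.09), and 3 were lower without the highest-roX2 libraries. Of 15 fat body genes 2 were higher and 1 lower, which became 1 and 2 without the highest-roX2 libraries. The whole list summed to 1883 to 2067 CPM in mutants and 2087 to 2209 CPM in controls, with Pepck1 at 0 in all 6 libraries. Named after their values were seen, secreted fat body proteins and a myosin light chain differed more within groups than between them. Lsp2, a larval serum protein, had 70.9, 0.874 and 3.18 CPM in mutants and 75.6, 28.7 and 13 CPM in controls (adjusted p = 0.764). Fbp1, a receptor of larval serum proteins, had 98.4, 2.07 and 13.6 CPM against 71.7, 50.1 and 39.1 CPM (adjusted p = 0.811). The myosin light chain gene Mlc2 had 13.8, 1.80 and 1.94 CPM against 7.90, 1.98 and 2.62 CPM (adjusted p = 0.582). Library 1 of both groups was the highest for all 3 genes. The part of carried-over tissue, eye disc included, in these differences was not tested.

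**Figure D5:**
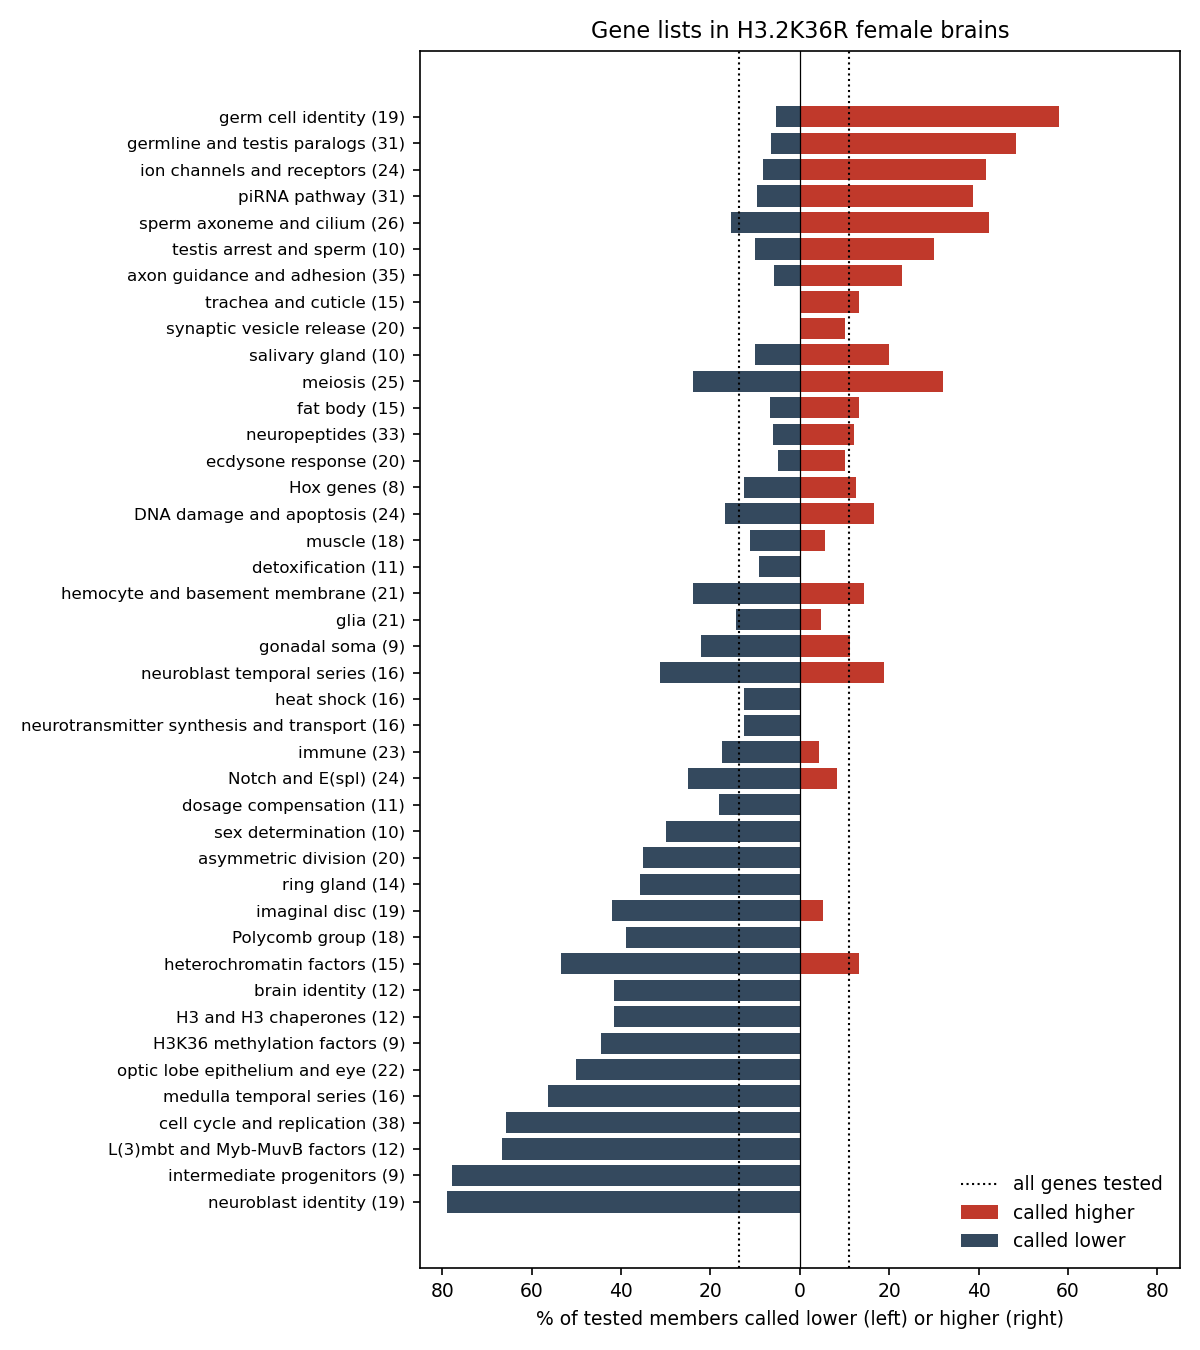
Bars give the percentage of tested members of each gene list called higher (right) or lower (left) in mutant females, with the number tested in parentheses and dotted lines at the shares of all genes, 11.1% and 13.7%. Neuroblast, intermediate progenitor, Myb-MuvB and cell cycle lists extend farthest to the left, and germ cell and paralog lists farthest to the right.

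Called genes lay on every chromosome arm. On the X, 14.9% of 2016 tested genes were higher and 14.8% lower. The other shares ran from 9.04% (2R) to 11.3% (3L) higher and from 12.2% (3L) to 14.6% (3R) lower on the large autosomal arms, and the small chromosome 4 had 15 higher and 20 lower of 105. The median of X-linked genes relative to the autosomal arms moved by 0.0097 on the log2 scale between controls and mutants. It was -0.0119, 0.0155 and 0.0175 in the mutants and -0.0051, -0.0035 and 0.0005 in the controls, with mutant library 1, rich in male transcripts, the lowest. An exact 2-sided permutation test over the 6 libraries gave p = 0.4, where the design can reach 0.1. On the Y, 5 of 29 tested genes were higher and none lower.

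Genes called higher tended to lie beside one another. Of 1339 higher genes placed on arms, 36.2% had a tested neighbour that was also higher, against 20.2% of all tested genes, and for lower genes the shares were 32% and 25%. The longest run of neighbours called higher held 8 genes on 2R, among them RpL22-like and ord. No test was made of these shares. Genes not annotated as protein-coding, pseudogenes included, made up 211 of 1344 annotated higher genes and 34 of 1657 lower ones. Among annotated genes tested they made up 1382 of 12112.

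In males, where 12.3% of genes were higher and 13.1% lower, 951 of the 1351 genes higher in females were also called higher (70.4% of the female and 63.7% of the male calls). Of the 1667 genes lower in females, 1082 were lower in males (64.9% and 67.7%). The comparisons share no library, although the female libraries held male transcripts. The part of that male RNA in the agreement between the sexes was not tested. 2 genes changed in opposite directions, and the difference between the sexes passed the test for 8 genes, 0.0658% of those tested (0.0493% higher and 0.0164% lower in females), with 734 at an unadjusted p under 0.05. Among the large changes, the log2 difference of cherub was -2.55 in females and -2.28 in males, that of blanks 5.0 and 4.69, and that of pros -0.50 and -0.90 (difference 0.40 ± 0.12, adjusted p = 0.38).

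The clearest sex difference was Arc1 (FBgn0033926, 2R), a capsid-forming gene of retrotransposon origin active at synapses. Females had 274, 226 and 226 CPM in mutants and 189.5, 125 and 142 CPM in controls, and males 402 ± 12.9 CPM in mutants and 134 ± 17.3 CPM in controls (SD, n = 3). The rise was 0.67 ± 0.11 in females and 1.58 ± 0.11 in males, a difference of -0.91 ± 0.16 (adjusted p = 0.0274). It did not pass without mutant female library 2 (adjusted p = 0.105) or 3 (0.093), control female library 1 (0.0539), control male library 2 (0.143), or mutant male library 2 (0.0911) or 3 (0.135).

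The Set21 allele of Set2, compared with yw in females, called 42.4% of genes, 20.9% higher and 21.5% lower. Of the genes higher with H3.2K36R, 593 (43.9%, and 23.3% of the Set2 rises) were also higher with Set2 loss and 154 (11.4%) were lower, and of the genes lower with H3.2K36R, 744 (44.6%, and 28.5% of the Set2 falls) were lower and 181 (10.9%) higher. The responses differed at 3082 genes (25.3%), 12.5% with H3.2K36R above and 12.8% below. Marf1 rose with both, by 3.91 ± 0.22 and 3.78 ± 0.23, and hid rose by 0.91 ± 0.15 and 0.97 ± 0.15. cherub, by contrast, had a log2 difference of -0.27 ± 0.12 with Set2 loss (adjusted p = 0.0845), which differed from that of H3.2K36R by -2.29 ± 0.18 (adjusted p = 6.99e-11). nanos rose by 5.11 ± 0.34 with H3.2K36R and had 0.48 ± 0.42 with Set2 loss (adjusted p of the difference 2.33e-07). Dscam2 went in opposite directions, 0.38 ± 0.09 and -0.56 ± 0.09. Backgrounds of the control groups differ, since Set2 loss was set against yw and H3.2K36R against H3.3WTH3.2HWT.

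The same substitution in H3.3, compared with H3.3CtrlH3.2HWT in females, called 6.35% of genes, 3.44% higher and 2.90% lower. Of genes higher with H3.2K36R, 153 (11.3%, and 36.5% of the H3.3K36R rises) were also higher with H3.3K36R, and 48 (3.55%) were lower. Of genes lower with H3.2K36R, 79 (4.74%, and 22.4% of the H3.3K36R falls) were also lower and 38 (2.28%) higher. The responses differed at 1472 genes (12.1%), 5.40% with H3.2K36R above and 6.70% below. krimp rose with both, by 1.92 ± 0.10 and 1.52 ± 0.10, and Marf1 by 3.91 ± 0.22 and 1.51 ± 0.20. cas fell by 1.87 (SE 0.12) with H3.2K36R and had 0.04 ± 0.12 with H3.3K36R (adjusted p of the difference 2.40e-09). The glutathione transferase gene Mgstl stood at 0.05 ± 0.05 with H3.2K36R and -1.36 ± 0.05 with H3.3K36R (adjusted p of the difference 4.52e-15). roX2 in females of the comparison groups was 2.07 ± 1.74 CPM in yw, 1.99 ± 2.00 CPM in Set21, 2.48 ± 1.98 CPM in H3.3CtrlH3.2HWT and 6.97 ± 4.40 CPM in H3.3K36RH3.2HWT (SD, n = 3), beside 11 ± 4.08 CPM in the H3.2 controls.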

How the data were processed

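The deposited table held counts per gene as whole numbers for 36 libraries, 3 in each of 12 groups of genotype and sex. The authors made them from paired-end 100 bp reads of polyA-selected RNA prepared with a stranded kit, per the labels' protocols, and STAR 2.7.2a with Subread 2.0.3 is listed per the submitters' processing notes. The sources used here give neither genome build nor strand option for that step. Reads of overlapping, antisense or near-identical genes may therefore be shared. Between 79.2% and 85.1% of values from 1 to 4 were even, so counts are called reads.

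Counts were analysed with edgeR 4.0.16 in R 4.3.3. Genes passed its expression filter at a minimum count of 10, TMM scaled the libraries, and the quasi-likelihood model had 1 mean per group over all 36 libraries. Calls are Benjamini-Hochberg adjusted p-values under 0.05 over 12167 genes, 2-sided. CPM use TMM library sizes, and log2 differences come from the model. Sex, Set2 and H3.3 responses were compared as contrasts of the same model. The other comparisons share no libraries with each other, while the female H3.2K36R libraries enter every difference of responses. Of 17606 genes, 17527 were matched to Ensembl 115 for arms. DESeq2 1.42.0 was an alternative, and the fit was tested on simulated data.

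Genes named are fixed markers, the 15 largest rises and 15 largest falls without overlap at 5 CPM or more, the 8 largest gains and losses in CPM, up to 5 called and 2 uncalled members per list, and up to 6 per direction of each difference of responses. The members, lists and rule were chosen with earlier results of these data known. Nothing states that libraries came from separate animals, so p-values measure the spread between these libraries, which may be technical. Same-numbered mutant and control libraries of the H3.2 females deviated from their group means together, with r = 0.34, 0.105 and 0.186 across genes, although for number 2 a differently numbered pair reached 0.12, so a fit with the replicate number as a block was run. No pair of libraries within a group agreed within counting noise.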

Additional observations from a re-analysis of the deposited data

Results flagged for a closer look

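The response to H3.2K36R differed between females and males at 8 genes, each by the contrast of the responses in edgeR's quasi-likelihood fit. Arc1 had a difference of females minus males of -0.91 on the log2 scale (adjusted p = 0.0274). For lncRNA:CR46482 it was -1.84 (adjusted p = 0.0454), with a rise of 2.17 ± 0.27 in males and 0.33 ± 0.26 in females, where CPM stayed between 0.292 and 0.489. The lipoprotein gene apolpp differed by 0.57 (adjusted p = 0.0274), since it fell by 0.65 in males (SE 0.07) and had -0.08 ± 0.07 in females. CG15210 fell in both sexes and less in females, a difference of 0.71 (adjusted p = 0.0445). CG1812 differed by 0.44 (adjusted p = 0.0445), with 0.38 ± 0.06 in females and -0.06 ± 0.06 in males. CG31999 differed by 0.42 (adjusted p = 0.0447) and SP1173 by 0.40 (adjusted p = 0.0454). Idgf3, of a family of secreted chitinase-like proteins, differed by 0.36 (adjusted p = 0.0454), with 0.17 ± 0.05 in females and -0.19 ± 0.05 in males. Each of the 8 lost its call in several alternatives, and the female libraries hold male transcripts in unequal amounts, whose part in these differences was not tested.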

How the results depend on the processing

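Genes called in females numbered 1290 higher and 1591 lower with the replicate number as a block, 1563 and 1545 with DESeq2, 1452 and 1459 with RLE scaling, 1252 and 1451 without a filter, and 1228 and 1286 at a mean of 1 CPM or more. Calls lower dropped from 1667 to 930 without the highest-roX2 library of each group, to 1029 with roX2 as a covariate and to 1031 in the fit to the compared libraries, and the cause was not tested. Leaving out single libraries gave 978 to 1243 higher and 1166 to 1531 lower. Differences between the sexes, 6 higher and 2 lower, became 0 and 1 with the block, 21 and 16 with DESeq2, 2 higher without the highest-roX2 libraries, 0 and 0 in the fit to the compared libraries, and 1 lower without a filter or with the stricter one, and ran from 0 to 15 higher and 0 to 6 lower without single libraries. Differences from the Set2 response stayed within 1.5 times of 1524 higher and 1558 lower in every alternative. Differences from the H3.3 response, 657 higher and 815 lower, became 404 and 335 with roX2 as a covariate, and lower ones 532 without the highest-roX2 libraries and 393 in the fit to the compared libraries. The X shift ran from 0.0003 to 0.0202. Of 92 called genes named that entered all 14 alternatives, 86 kept the call in each, and of 10 that the stricter filter removed, 7 kept it in the other 13. Of 86 counts of list members called, 26 stayed within 1.5 times in every alternative. The block ended the calls of kl-3, kl-5, Sgs5 and Sgs5bis and those of the sex differences other than Arc1. It ended no other call of a named gene. Small uncalled differences changed sign. elav had -0.0092 with the covariate and between -0.0636 and 0.0595 without single libraries. FDY had 0.0064 under the stricter filter, 0.0172 without the highest-roX2 libraries, 0.9389 with the covariate and between -0.9308 and 0.9277 without single libraries. His3.3B had -0.0115 with the covariate and between -0.018 and 0.0572 without single libraries, and Sxl had -0.0397 and between -0.0133 and 0.1323. Without single libraries Lsp2 ran from -4.2487 to 0.271, Fbp1 from -2.7625 to 0.0633 and Mlc2 from -1.1551 to 1.354, and Mlc2 had -1.4919 without the highest-roX2 libraries. Alternatives for list counts and for single genes of the sex difference were chosen after seeing the data. Low counts limit the germline genes, many of which had a handful of control reads or none.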
